A study of Mus musculus with 6 samples.

Results

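The genes described here are 10 that encode the machinery of inflammatory and programmed cell death in the liver: the inflammasome genes Nlrp3, Casp1, Gsdmd and Il1b, the necroptosis genes Ripk3 and Mlkl, and the death receptor genes Casp8, Fas, Tnfrsf10b and Tnfrsf12a. They were taken by gene symbol, by a rule that reads no measured value, and all 10 were found among the 17460 genes of the deposited table. Polyadenylated liver RNA was sequenced from 6 C57BL/6 mice, 9 months old, after 24 weeks on a diet of fructose, trans fats and cholesterol that induces nonalcoholic steatohepatitis (NASH). The 3 control and the 3 liver-specific Blnc1 knockout (Blnc1 LKO) mice were compared. Blnc1 is a long noncoding RNA. By the methods of the study, LKO mice carried a transgene that expresses Cas9 constitutively and were injected in the tail vein with an adenovirus carrying guide RNAs to Blnc1. For a cohort of the same design on a high-fat diet the controls were Cas9 mice given a GFP adenovirus, and the sources used here do not repeat this for the cohort on the NASH diet. Adenovirus transduces non-parenchymal liver cells poorly, so the deletion concerns mainly hepatocytes, whereas the RNA came from whole liver. The labels give each liver a title of its own and no litter, sex or batch, so p-values measure the spread between these livers.

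Inflammasomes are protein platforms that form after infection or cell injury. The sensor NLRP3 recruits and activates caspase-1, which matures interleukin-1β (Il1b) and cuts gasdermin D (Gsdmd) to open pores in the plasma membrane. In necroptosis the kinase RIPK3 phosphorylates MLKL, which breaches the plasma membrane, and caspase-8 restrains this route while it starts apoptosis below death receptors. Fas and the TRAIL receptor (Tnfrsf10b) carry a death domain, whereas the TWEAK receptor Fn14 (Tnfrsf12a) lacks one and is known to be induced in injured liver. In steatohepatitis, dying hepatocytes and activated macrophages are both known to use these routes.

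None of the 10 genes passed an adjusted p under 0.05 between control and Blnc1 LKO livers (limma, adjusted p from 0.840 to 1.00), where 0.00578% of the 17297 genes tested did. Values are normalised read counts, reads divided by a size factor of each liver, and fold changes are on the scale of log2(value + 1). The largest difference was for Tnfrsf12a, whose mean normalised read count in Blnc1 LKO livers was 0.744 of that in control livers, followed by Il1b at 1.19 and Mlkl at 0.887. The other 7 genes had means within 0.924 to 1.07 of control. At an unadjusted p under 0.05 in limma there were 2 members, Tnfrsf12a and Mlkl, both lower, against 2.74% of all genes tested that were lower at that level and 5.68% in either direction. This count was 0 without control replicate 1, without control replicate 2, without Blnc1 LKO replicate 1 or without Blnc1 LKO replicate 3, and 2 without either of the other livers. In 2 members, Casp1 and Mlkl, all 3 Blnc1 LKO livers lay below all 3 control livers, as did 5.28% of all genes tested, and in no member did they all lie above, as did 5.35% of all genes. Of the 10 fold changes, 6 were below 0, against 50.4% of all genes, and their median was -0.02 on the log2 scale beside -0.00099 for all genes tested. With DESeq2 on the recovered reads, which called 0.486% of all genes, the smallest adjusted p among the members was 0.532, for Tnfrsf12a.

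**Figure D1:**
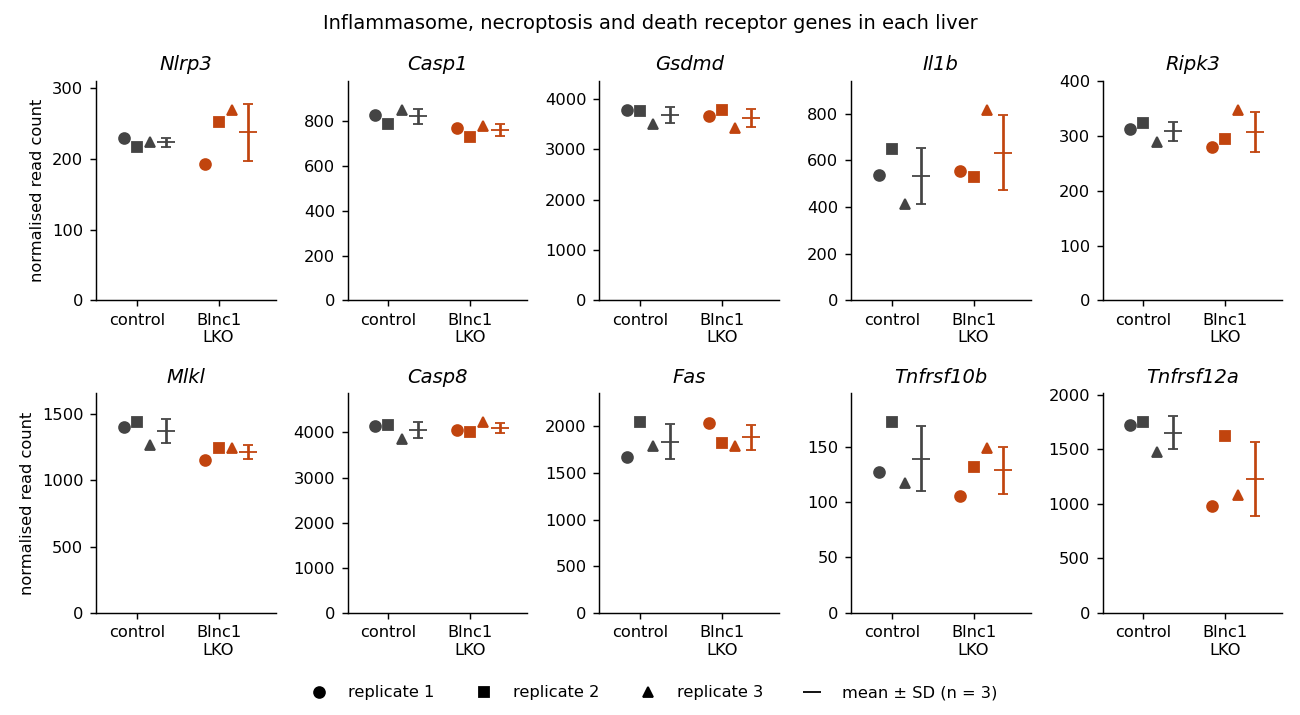
Normalised read counts (linear axis from 0) of the 10 genes in each liver, control in grey and Blnc1 LKO in orange, with the replicate given by the symbol; the bar beside the points is the mean ± SD (n = 3). Tnfrsf12a is low in Blnc1 LKO replicates 1 and 3, at 983 and 1078, and not in replicate 2, at 1619, while Gsdmd and Casp8 differ little between any of the livers.

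The promoters of Tnfrsf12a, Il1b and Mlkl are shown because these 3 genes had the largest differences. Each is 300 bases of RefSeq (GRCm38.p6), from 250 before the transcription start to 50 after it, 5′ to 3′ on the strand of the gene, and capitals mark matches, on either strand, to the GC box GGGCGG or the TATA box TATAAA. Tnfrsf12a lies at chr17:23677400-23677699 on the - strand, Mlkl at chr8:111338156-111338455 on the - strand and Il1b at chr2:129371090-129371389 on the - strand.
Tnfrsf12a: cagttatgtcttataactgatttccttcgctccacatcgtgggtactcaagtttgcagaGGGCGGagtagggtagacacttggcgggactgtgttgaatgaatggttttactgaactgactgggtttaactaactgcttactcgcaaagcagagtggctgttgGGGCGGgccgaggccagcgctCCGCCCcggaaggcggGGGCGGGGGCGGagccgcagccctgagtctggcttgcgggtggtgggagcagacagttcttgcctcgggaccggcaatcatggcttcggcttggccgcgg
Mlkl: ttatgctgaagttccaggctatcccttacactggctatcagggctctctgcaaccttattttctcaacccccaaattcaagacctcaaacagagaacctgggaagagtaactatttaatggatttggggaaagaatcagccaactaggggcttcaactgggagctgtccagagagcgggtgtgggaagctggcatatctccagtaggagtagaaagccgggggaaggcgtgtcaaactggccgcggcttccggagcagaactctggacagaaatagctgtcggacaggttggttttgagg
Il1b: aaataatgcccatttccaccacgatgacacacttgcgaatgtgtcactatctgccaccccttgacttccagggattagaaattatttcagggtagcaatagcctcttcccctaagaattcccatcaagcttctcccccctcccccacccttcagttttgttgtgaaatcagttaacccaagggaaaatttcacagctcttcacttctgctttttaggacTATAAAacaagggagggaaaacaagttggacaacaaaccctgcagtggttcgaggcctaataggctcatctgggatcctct
The Tnfrsf12a promoter held 5 matches to the GC box, which 35.7% of the 32851 RefSeq promoters of this length hold at least once. The Il1b promoter held the TATA box, starting 31 bases before the transcription start, which 13.6% of the promoters hold. Also searched on both strands were the AP-1 motif TGANTCA (7.81% of promoters) and the interferon-stimulated response element, GAAA repeated after any pair of bases (3.44%). The cAMP response element TGACGTCA (1.79%), the NF-kB motif (4.51%) and a partial p53 site (8.36%) were searched in the same way. None of these additional motifs matched in these 3 windows. The partial p53 site is only a part of a p53 response element, and the full element was not searched. Among the 8 members with a promoter in RefSeq, AP-1 matched in Fas. The NF-kB motif and the partial p53 site matched in the second promoter of Nlrp3.

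In GRCm38 (GENCODE M21) the 10 protein-coding genes lie on chr11:59541568-59566956 (Nlrp3, + strand), chr9:5298517-5307265 (Casp1, + strand), chr15:75862327-75867408 (Gsdmd, + strand), chr2:129364570-129371139 (Il1b, - strand), chr14:55784995-55788865 (Ripk3, - strand), chr8:111311797-111338177 (Mlkl, - strand), chr1:58795374-58847503 (Casp8, + strand), chr19:34290666-34327772 (Fas, + strand), chr14:69767472-69784411 (Tnfrsf10b, + strand), and chr17:23675445-23677468 (Tnfrsf12a, - strand), and the values below are summed over each whole gene.

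The levels of the genes were set in order by normalised read count per kilobase of merged exons (GENCODE M21), a scale on which genes can be compared. In control livers the order was Gsdmd at 1549 ± 68.1 per kilobase, Casp8 at 1404 ± 60.7, Fas at 891 ± 92.9, Tnfrsf12a at 854 ± 78.3, Mlkl at 596 ± 38.9, Casp1 at 549 ± 22.4, Il1b at 279 ± 62.3, Ripk3 at 135 ± 7.58, Nlrp3 at 55.1 ± 1.48 and Tnfrsf10b at 25.5 ± 5.40 (SD, n = 3 livers each). The values of Fas overlapped those of Tnfrsf12a, and those of Mlkl overlapped those of Casp1, so these neighbours had no settled order, while the other neighbours did not overlap in control livers. The pore-former Gsdmd was thus near the top, and its sensor Nlrp3 was near the bottom. In Blnc1 LKO livers the order of the means was the same, but the values of Tnfrsf12a, at 635 ± 178 per kilobase (SD, n = 3), no longer overlapped those of Fas and overlapped those of Mlkl. Casp8 also overlapped Gsdmd in these livers.

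Among the inflammasome genes, the sensor Nlrp3 had control values of 229, 217 and 224 and Blnc1 LKO values of 193, 252 and 270. The control livers were close together, with a coefficient of variation of 2.69%, and the Blnc1 LKO livers lay on both sides of them, with a coefficient of variation of 16.9%. At the lowest depth for this gene, 162 reads, counting alone gives 7.86%. The log2 fold change was 0.08 with a standard error of 0.14 (limma, adjusted p = 0.986), and it went from 0.22 without Blnc1 LKO replicate 1 to -0.02 without Blnc1 LKO replicate 3.

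Casp1, the protease that NLRP3 activates, had control values of 829, 785 and 851 and Blnc1 LKO values of 771, 729 and 779. Each Blnc1 LKO liver lay below each control liver, the nearest values being 779 and 785. The log2 fold change was -0.11 with a standard error of 0.07 (limma, adjusted p = 0.951), with a 95% confidence interval from -17.4% to 3.58%. Gsdmd had control values of 3791, 3759 and 3496 and Blnc1 LKO values of 3656, 3791 and 3431. The groups overlapped throughout, and the interval of its difference ran from -10.5% to 8.33% (log2 fold change -0.02, adjusted p = 0.991, limma).

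The summed level of 6 endothelial cell markers, read beside Casp1, was 22227 to 23485 in control and 21457 to 22140 in Blnc1 LKO livers. The nearest values, 22140 and 22227, were close, and other scalings of this sum were not tried. By log2 fold change, 4 of these markers were lower and 2 were higher. Lyve1, Pecam1 and Cdh5 were lower at an unadjusted p under 0.05, against 2.74% of all genes, and no marker passed the adjustment (limma). Pecam1 and Cdh5 were lower in each Blnc1 LKO liver, as were 5.28% of all genes. Over these same 6 livers Cdh5 also had the values most like those of Casp1 among 173 partner and marker genes, by centred log2 values. Its lower level beside Casp1 is therefore not a separate observation. The part of endothelial cells in the values of Casp1, and in those of the alarmin Il33 given below, was not tested.

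Il1b, the cytokine at the end of the route, had control values of 536, 650 and 412 and Blnc1 LKO values of 553, 530 and 818. The groups overlapped, and the highest of the 6 values was in Blnc1 LKO replicate 3, at 1.98 times the lowest. The log2 fold change was 0.25 with a standard error of 0.20 (limma, adjusted p = 0.971), with an interval from -13.8% to 63.2%. Without Blnc1 LKO replicate 3 it was 0.05, without control replicate 3 it was 0.07 and without control replicate 2 it was 0.40. The antisense gene Il1bos shares 25 exon bases with Il1b and had 5.33 to 9.52 normalised reads per liver; the strand setting of the counting is not stated.

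Levels of 7 neutrophil markers, none at 0 in any liver, were read beside Il1b, since neutrophils and monocytes are known sources of it. Blnc1 LKO replicate 3 stood apart, with a summed level of 6214 where the other 5 livers lay between 1131 and 1780. Its S100a8 value was 1705 (142 to 385 in the other livers), its S100a9 value was 2326 (222 to 470) and its Ngp value was 967 (18.1 to 150), all of them genes of neutrophil granules and cytosol. Csf3r, the receptor of granulocyte colony-stimulating factor, was only slightly higher there, at 843 against 594 to 754. The 2 platelet markers also had their highest sum in this liver, at 654 against 352 to 514. Of them, Ppbp was higher at an unadjusted p under 0.05 (limma), at 408 in this liver against 55.4 to 137 in the others. The other marker, Pf4, went the other way, with a log2 fold change of -0.24 (limma). None of the 7 neutrophil markers passed an adjusted p under 0.05 in limma or an unadjusted p under 0.05. Of the 12 macrophage and Kupffer cell markers, 5 were higher at an unadjusted p under 0.05 (Adgre1, Clec4f, Vsig4, Timd4 and Marco) and 2 were lower (Gpnmb and Ccr2), against 2.94% and 2.74% of all genes, and none passed the adjustment in limma. Their summed level ranged from 63240 to 71296 in control livers and from 67628 to 76951 in Blnc1 LKO livers. Their mean log2 deviation from the control mean was -0.03, 0.15 and -0.11 in control livers. In Blnc1 LKO livers it was 0.44, 0.21 and 0.55. By log2 fold change, 8 of the 12 were higher, the largest at 3.03, and 4 were lower. The part of these cells in the values of Il1b and Nlrp3 was not tested, and in whole liver fewer cells of a type and less RNA per cell cannot be told apart.

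**Figure D2:**
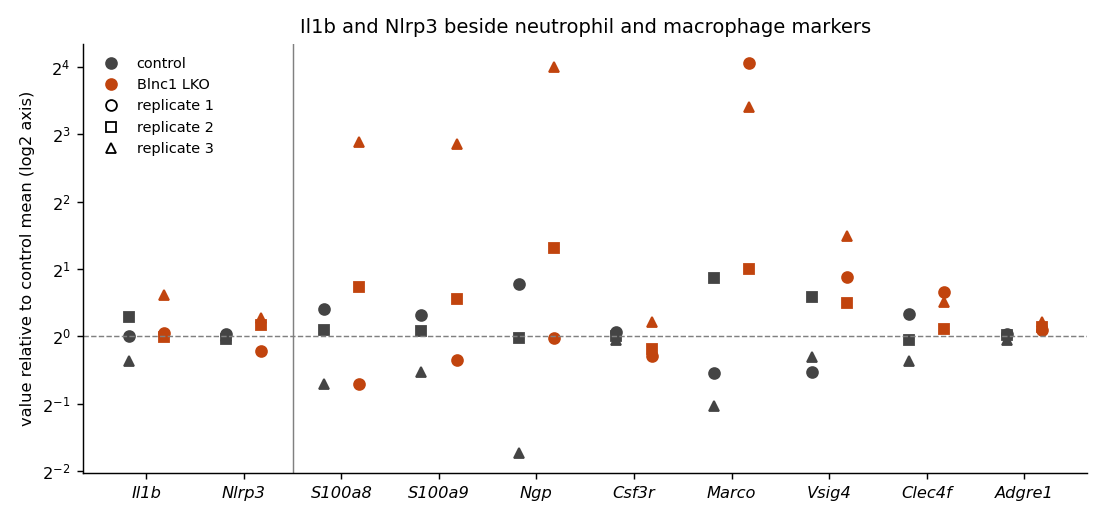
Values of Il1b, Nlrp3 and 8 marker genes in each liver, divided by the mean of the 3 control livers (log2 axis, dashed line at 1), with controls in grey, Blnc1 LKO in orange and the replicate given by the symbol. The triangle of Blnc1 LKO replicate 3 is highest for Il1b and Nlrp3 and for the neutrophil genes S100a8, S100a9, Ngp and Csf3r. The other neutrophil markers are not drawn. In the whole list of 7, drawn markers included, 5 were higher and 2 lower by log2 fold change. The macrophage genes Marco, Vsig4, Clec4f and Adgre1 are from the 5 that were higher at an unadjusted p under 0.05 (limma). Gpnmb and Ccr2, which were lower at that level, are not drawn.

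Of the necroptosis genes, the kinase Ripk3 had control values of 312, 324 and 290 and Blnc1 LKO values of 280, 295 and 348. The Blnc1 LKO livers held both the lowest and the highest value, and the log2 fold change was -0.0092 with a standard error of 0.12 (limma, adjusted p = 1.00). Its interval ran from -17.3% to 19.4%.

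Mlkl, the substrate of RIPK3 and the executioner of necroptosis, had control values of 1401, 1442 and 1271 and Blnc1 LKO values of 1153, 1248 and 1249. Each Blnc1 LKO liver lay below each control liver, and the gap between the groups, from 1249 to 1271, was smaller than the spread within either group. Scaled by library size alone, the groups overlapped, since Mlkl was 1303 in Blnc1 LKO replicate 2 and 1268 in control replicate 3. The control mean was 1372 ± 89.7 and the Blnc1 LKO mean 1217 ± 55.0 (SD, n = 3). The difference was -0.17 on the log2 scale, with a standard error of 0.07. The adjusted p over all genes was 0.870 (limma), and the 95% confidence interval ran from -20.8% to -0.430%. Fits without 1 of the livers gave log2 values between -0.23 and -0.13. The unadjusted p was above 0.05 in DESeq2, in edgeR with library size only, with a replicate block and in 4 of the 6 fits without 1 liver.

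Among the death receptor genes, Casp8, the protease that starts apoptosis below the receptors, had control values of 4153, 4171 and 3858 and Blnc1 LKO values of 4065, 4002 and 4234. The 6 livers differed by at most 1.10 times. This was the narrowest interval of the 10 genes, from -7.40% to 10.2% (log2 fold change 0.01, adjusted p = 0.996, limma). Fas, the receptor of Fas ligand, had control values of 1674, 2049 and 1790 and Blnc1 LKO values of 2035, 1822 and 1795. Here too the groups overlapped, with an interval from -10.5% to 17.9% (log2 fold change 0.04, adjusted p = 0.989, limma).

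Tnfrsf10b had the fewest reads, from 89 to 178 per liver, with control values of 128, 173 and 117 and Blnc1 LKO values of 106, 132 and 149. The values of the groups were interleaved, and the interval ran from -31.8% to 26.6% (log2 fold change -0.11, adjusted p = 0.986, limma). Its coefficient of variation was 21.1% in control and 16.7% in Blnc1 LKO livers, where counting alone gives 10.6% at the lowest reads.

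Tnfrsf12a, which encodes the TWEAK receptor Fn14, had control values of 1723, 1749 and 1475 and Blnc1 LKO values of 983, 1619 and 1078. Blnc1 LKO replicates 1 and 3 lay below every control liver, whereas replicate 2 lay within the control range. The control mean was 1649 ± 151 and the Blnc1 LKO mean 1227 ± 343 (SD, n = 3). The difference was -0.46 on the log2 scale, with a standard error of 0.17. The 95% confidence interval ran from -44.3% to -4.78%, and the adjusted p over all genes was 0.840 (limma). Without Blnc1 LKO replicate 2 the log2 fold change was -0.68, with an adjusted p of 0.109, and without Blnc1 LKO replicate 1 it was -0.32, with an adjusted p of 0.904 (limma). The sign was the same under all 15 alternatives, with adjusted p from 0.109 to 1.00. The ligand Tnfsf12 (TWEAK) had control values of 1033, 1086 and 906 and Blnc1 LKO values of 844, 1091 and 958, and its groups overlapped.

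Blnc1 LKO replicate 2 also stood near the controls in the summed level of markers of stellate cells, the collagen-producing cells of the fibrotic liver. The summed level of 7 such markers was 75313 to 80211 in control livers, 63532 and 64194 in Blnc1 LKO replicates 1 and 3, and 75570 in replicate 2. By log2 fold change, 6 of these markers were lower and 1 was higher, at 0.16. Col1a1, Col1a2 and Rgs5 were lower at an unadjusted p under 0.05, against 2.74% of all genes, and no marker passed the adjustment (limma). Col1a1, the main fibrillar collagen, had control values of 15541, 11645 and 14716 and Blnc1 LKO values of 8006, 10928 and 8500, so that replicate 2 was the nearest to the controls and still below them. Cholangiocyte markers, read beside Tnfrsf12a because the ductular reaction of injured liver is known to express it, had summed levels of 59670 to 71429 in control livers and of 56678, 71365 and 47237 in Blnc1 LKO livers. The part of these cells in the Tnfrsf12a values was not tested.

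**Figure D3:**
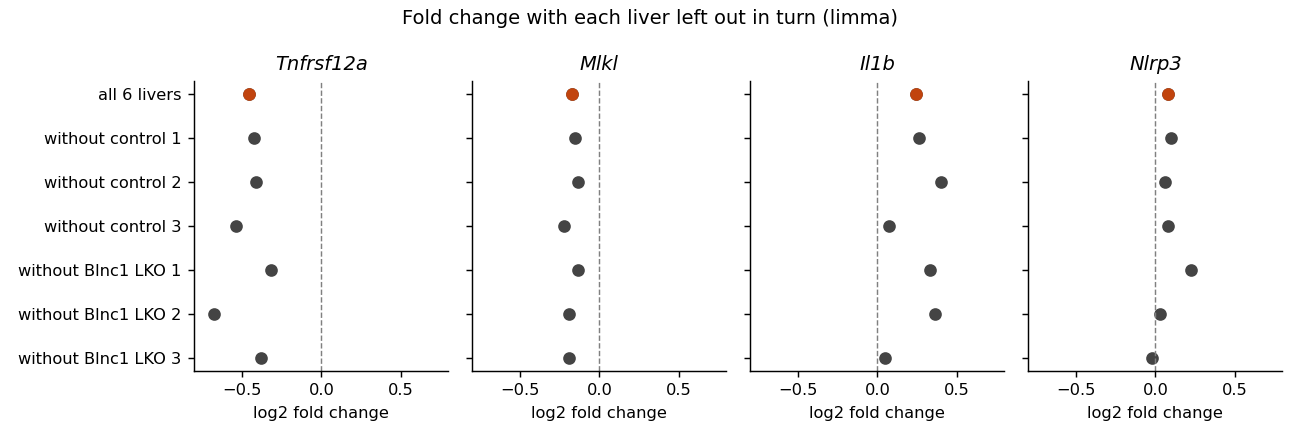
Log2 fold change (Blnc1 LKO against control, log2 of normalised count + 1) of Tnfrsf12a, Mlkl, Il1b and Nlrp3 with all 6 livers, in orange, and with each liver left out in turn, in grey. Tnfrsf12a and Mlkl stay below 0 in all 6 fits, whereas Il1b falls to 0.05 and Nlrp3 to -0.02 without Blnc1 LKO replicate 3.

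Sorted by liver, Blnc1 LKO replicate 1 had the lowest of the 6 values for 5 of the 10 genes (Nlrp3, Ripk3, Mlkl, Tnfrsf10b and Tnfrsf12a). Replicate 3 had the highest for 4 (Nlrp3, Il1b, Ripk3 and Casp8). Control replicate 2 had the highest for 4 others (Mlkl, Fas, Tnfrsf10b and Tnfrsf12a). The same shares over all genes were not counted, so these counts describe the livers and no trait of the 10 genes is read from them. Blnc1 LKO replicate 1 was also the liver with the fewest reads on listed genes, 65384969.

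**Figure D4:**
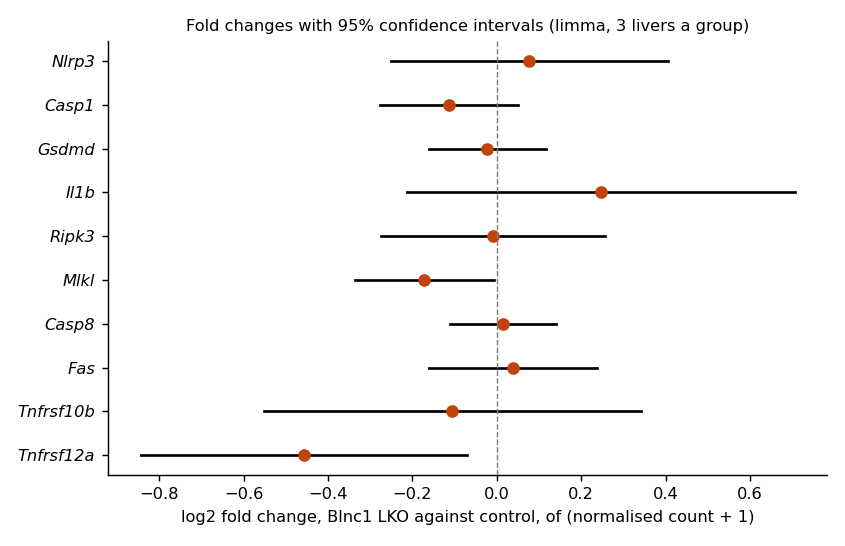
Log2 fold changes of the 10 genes (points; Blnc1 LKO against control, log2 of normalised count + 1) with 95% confidence intervals from limma (bars). The intervals of Tnfrsf12a and Mlkl lie below 0 before adjustment for the number of genes, and those of Casp8 and Gsdmd are the narrowest.

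The partners of these genes were read from 6 lists with 118 genes, of which 116 were tested. None passed an adjusted p under 0.05 in limma. At an unadjusted p under 0.05 there were 2 higher and 1 lower, against 2.94% and 2.74% of all genes, and the median log2 fold change was -0.01. Of the 116, 5 had all Blnc1 LKO values above all control values and 4 had them all below, against 5.35% and 5.28% of all genes. Among 20 inflammasome sensors and adaptors, 1 was higher at that level. This was Naip1, a sensor of bacterial secretion systems, with control values of 63.4, 62.9 and 66.0 and Blnc1 LKO values of 118, 72.3 and 96.9 (log2 fold change 0.54, adjusted p = 0.840, limma). Its coefficient of variation in control livers was 2.66%, closer than counting alone gives at its lowest depth (13.0% at 59 reads). Naip genes are near-identical to each other, and how the counting treated reads shared between them was not checked. Nlrp1b, a sensor of bacterial proteases, was next, with control values of 179, 164 and 190 and Blnc1 LKO values of 208, 199 and 261. Its 3 Blnc1 LKO values lay above all control values (log2 fold change 0.32, adjusted p = 0.879, limma). The adaptor Pycard (ASC), which joins NLRP3 to caspase-1, had a log2 fold change of 0.0044 (adjusted p = 1.00, limma).

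Among gasdermins and the interleukin-1 family, 15 of 17 genes were tested and 1 was lower at an unadjusted p under 0.05. This was Il33, an alarmin released from damaged cells, with control values of 694, 593 and 632 and Blnc1 LKO values of 556, 521 and 476. All its Blnc1 LKO values lay below the control values, and the log2 fold change was -0.30 with a standard error of 0.10 (limma, adjusted p = 0.781). Il1rn, the receptor antagonist that opposes interleukin-1β, had control values of 1400, 1633 and 1476 and Blnc1 LKO values of 1183, 1524 and 1148 (log2 fold change -0.24, adjusted p = 0.891, limma). It was low in Blnc1 LKO replicates 1 and 3 and not in replicate 2, like Tnfrsf12a.

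None of the 13 necroptosis partners, the 22 ligands, receptors and adaptors of death receptors or the 30 genes of mitochondrial apoptosis had an unadjusted p under 0.05 in limma. All 13 necroptosis partners had a log2 fold change under 0.2 in size, as had 21 of the 22 death receptor partners and 29 of the 30 mitochondrial genes, against 12969 of all 17297 genes tested. In the inflammasome and interleukin-1 lists, 13 of 20 and 9 of 15 genes were under 0.2 in size. The pair of smallest p in each list were as follows. Otulin, which trims linear ubiquitin, had a log2 fold change of 0.12, and Zbp1, a nucleic acid sensor that activates RIPK3, had -0.19 (adjusted p = 0.919 and 0.923, limma). Faim2 was at most 7 reads in any liver and is not read further, and Tnfrsf23, a TRAIL decoy receptor, had -0.19. Apaf1, the scaffold of the apoptosome, was lower in each Blnc1 LKO liver, with control values of 830, 815 and 846 and Blnc1 LKO values of 735, 785 and 759 (log2 fold change -0.13, adjusted p = 0.923, limma). Bcl2a1b, a survival gene of leukocytes with near-identical copies, had -0.15.

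Among 16 p53 target genes, a list chosen because Fas and Tnfrsf10b are p53 targets, 1 was higher at an unadjusted p under 0.05. This was Eda2r, a receptor of the tumour necrosis factor family, with control values of 435, 395 and 444 and Blnc1 LKO values of 583, 454 and 583 (log2 fold change 0.34, adjusted p = 0.824, limma). Phlda3 followed with 0.18, and its groups overlapped. The cell cycle inhibitor Cdkn1a (p21) had -0.01 and Mdm2 had 0.0027, both with adjusted p = 1.00 (limma).

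**Figure D5:**
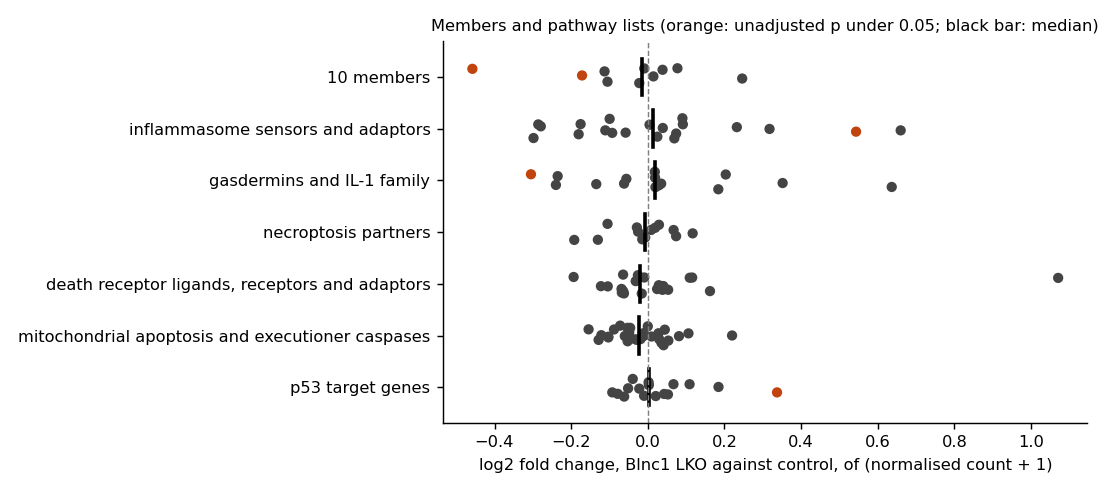
Log2 fold changes of the 10 members and of the genes of 6 partner lists, 1 point per gene, with unadjusted p under 0.05 in orange and the median of each list as a black bar. The medians lie between -0.02 and 0.02, and the point at 1.07 is Faim2, which has at most 7 reads per liver.

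Across the series, livers had between 65384969 and 89350181 reads on the listed genes, and no pair of livers of one group had matching counts. The table lists no gene named Blnc1, and Paqr9, the neighbour of Blnc1, of which RefSeq gives Blnc1 as another name, had overlapping values of 15156 to 18810 in control and 15663 to 20027 in Blnc1 LKO livers, so the loss of Blnc1 was not checked here. The 6 hepatocyte markers, which define the tissue, had summed levels of 6557400 to 7207900 in control and 6166700 to 7334000 in Blnc1 LKO livers. Those of T and NK cells were 1556 to 2060 and 1355 to 2032, and those of B cells 439 to 628 and 552 to 656, in control and Blnc1 LKO livers.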

How the data were processed

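Liver mRNA of 3 control and 3 Blnc1 LKO mice was measured. Per the submitters' processing notes and the methods of the study, the authors used STAR (mm10) to align polyA-selected reads, HTSeq for gene counts and DESeq2 for their comparison; versions, annotation and strand setting are not given in the sources used here. The deposited signal is a read count scaled by 1 size factor for each liver. All values (100%) were whole multiples of 1 read within 0.01, which recovered the reads. Columns named WT and KO were matched to control and LKO samples of the same number.

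limma 3.58.1 (R 4.3.3) was fitted to log2(value + 1), a scale that understates changes of low genes, with an eBayes trend, over the 17297 genes that reached 1 in 3 or more livers, with the Benjamini-Hochberg correction; unadjusted p-values are from the same fit. An exact permutation test of 3 against 3 cannot go below 0.1. Alternatives were a pseudocount of 0.1, other filters (none, or a mean of at least 10), a replicate block, edgeR 4.0.16, DESeq2 1.42.0 and voom on recovered reads, and each liver left out. The fits were tested on simulated data. Members, lists and tests were chosen with earlier results of these data known. Genes named from a list are those at an unadjusted p under 0.05, or the 2 of smallest p; other list and marker genes were named after their values were seen. A list symbol absent from the table was looked up among RefSeq synonyms.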

Additional observations from a re-analysis of the deposited data

How the results depend on the processing

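Over the 15 alternatives, none of the 327 adjusted p of the 10 members and of the 12 partner genes named by the rule was under 0.05 (smallest 0.109, Tnfrsf12a without Blnc1 LKO replicate 2). Faim2 was not fitted at a mean of at least 10 and had no adjusted p in DESeq2, with or without the block. Over all genes, the count past the threshold was 1, and it was 2 without a filter, 2 in edgeR with TMM, 84 in DESeq2, and 0 to 13 with each liver left out. Members at an unadjusted p under 0.05 were 2, and 1 in DESeq2 (Tnfrsf12a), 0 in edgeR with library size only and 0 to 2 with each liver left out. Members lower in every Blnc1 LKO liver were 2, and 1 (Casp1) with library size as the only scaling. Under a replicate block, limma called 0 genes (1 member at an unadjusted p under 0.05, Tnfrsf12a) and DESeq2 64 (1 member). Deviations of same-numbered livers did not correlate (-0.058, -0.019 and -0.11), so the numbers were not taken as pairs. The sign of 6 small fold changes turned. Ripk3 was 0.0031 in voom, and with each liver left out Ripk3 ranged from -0.10 to 0.056, Nlrp3 from -0.020 to 0.22, Gsdmd from -0.059 to 0.017, Casp8 from -0.022 to 0.034, Fas from -0.026 to 0.12 and Tnfrsf10b from -0.22 to 0.059. The causes were not tested. At 89 reads, the lowest of any member and liver, counting alone gives a coefficient of variation of 10.6%.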

Other observations

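Profiles over the 6 livers were compared with 173 genes of the partner and marker lists by the root mean square difference of centred log2 values, a description of these livers. The nearest profile to Tnfrsf12a was that of Pf4, a chemokine of platelets, at 0.15, where Tnfrsf12a itself varied by 0.33 around its mean; Il1rn was next at 0.17. The nearest to Nlrp3 was Tnfrsf1b, a receptor of tumour necrosis factor, at 0.053, where Nlrp3 varied by 0.15. The nearest to Mlkl was Traf3 at 0.062 (own variation 0.11), to Ripk3 Pgam5 at 0.059 (0.11), to Gsdmd Sigirr at 0.030 (0.057) and to Casp1 Cdh5 at 0.043 (0.072). For Il1b the nearest was Cd4 at 0.20 (0.30), and for Tnfrsf10b it was Des at 0.15 (0.23). For Fas the nearest was Ripk1 at 0.073 (0.10). Genes with little variation are near to many others on this scale.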
